A study of Mus musculus with 1 sample.

Results

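The 9 genes described here encode proteins of the complement cascade, the set of plasma proteins that tag and lyse microbes and damaged cells, and were measured in 1 droplet single-cell RNA sequencing library of normal mouse pancreas. They were taken by symbol from the 32285 genes listed in the deposited table, namely *C1ra*, *C1s1*, *C2*, *C3*, *C4b*, *C7*, *Cfb*, *Cfd* and *Serping1*. The library came from mice aged 2 weeks of the genotype Scap f/f, which carry a floxed *Scap* allele and no Cre transgene, so that *Scap* is intact. The pancreata of 5 to 6 mice, males and females, were pooled and digested before sequencing, and the library labels do not tie a cell to a mouse. The *Scap*-deficient library of the study was not analysed here, and with 1 library there is no replicate, no SD and no test. Intervals are exact 95% intervals of counts or shares and cover counting error only.

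Most complement proteins in blood are made by hepatocytes, and many tissues also make a local supply. The cascade starts by 3 routes. In the classical route C1q binds a surface and switches on the proteases C1r and C1s, which cut C4 and C2, and the pieces form an enzyme that cuts C3. In the alternative route factor D, the product of *Cfd*, cuts factor B, the product of *Cfb*, when factor B is bound to a C3 fragment, and the resulting enzyme cuts more C3. C7 belongs to the terminal complex that inserts into membranes. The C1 inhibitor, encoded by *Serping1*, blocks C1r and C1s.

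Of 11789 barcodes, 10947 held more than 800 and fewer than 100000 unique molecular identifiers (UMIs, each standing for 1 captured RNA molecule) and under 15% mitochondrial UMIs. These kept cells held 49202966 UMIs, with a median of 2650 per cell. They were put into 19 classes from marker genes that include no complement gene, and the names end in "-like" because they rest on markers alone. The classes compared in most detail were 5367 fibroblasts in 4 groups (551 *Rspo3* *Cxcl14*, 1119 *Mfap4* *Meox2*, 1007 *Pi16* *Pcolce2* and 2690 other fibroblasts), 525 mesothelial-like cells, 158 pericyte-like cells and 66 macrophage-like cells. Another 1075 barcodes passed the gates of more than 1 class and were called mixed, and 766 stayed unassigned. Not every overlap was called mixed. Among related classes the more enriched marker set named the cell, and the mesothelial gate overrode those of duct and smooth muscle. Cells with at least 2% fibroblast marker UMIs stayed in the mesothelial-like and Schwann-like classes, but were called mixed if they passed any other gate. Fibroblast RNA was thus screened less strictly in mesothelial-like and Schwann-like cells. A level is the sum of a gene's UMIs in a class, scaled to 1000000 UMIs of that class (CPM). The reads come from the 3′ end of transcripts, so levels were compared between classes for each gene and not between genes.

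The mesothelium is the thin cell layer that covers the pancreas and lines the abdominal cavity. All 6 mesothelial markers were highest in the mesothelial-like class. These 6 genes also set its gate, so their levels describe the class and do not check it. *Msln* was at 503 CPM there against 1.79 CPM in fibroblasts, and *Upk3b* at 1139 CPM against 6.44 CPM. The same class also carried fibroblast genes, with *Dcn* at 5233 CPM, close to the 5396 CPM of fibroblasts, while *Pdgfra* was at 64.9 CPM against 412 CPM. Macrophage markers summed to 7263 CPM in macrophage-like cells and to 54.2 CPM in mesothelial-like cells. The second value was limited by the gates, since cells that passed both were called mixed. Hepatocyte markers were at or near 0, since *Fga* and *Serpina1a* had no UMI in the library, *Fgb* had 1 and *Apoa1* had 10. *Alb* had 113 UMIs in 63 cells. The doublet caller Scrublet marked 54 of the 525 mesothelial-like cells (10.3%) and 4.91% of all kept cells.

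All 9 genes were detected, over a wide range of depth. *Serping1* had 21497 UMIs in 6397 cells, *C1s1* 10836 UMIs in 5019 cells, *C3* 8525 UMIs in 1421 cells, *C1ra* 4701 UMIs in 2929 cells and *C2* 2326 UMIs in 1072 cells. *Cfb* had 626 UMIs, *C4b* 274, *Cfd* 49 and *C7* 38. *C7* and *Cfd* lie below the 200 UMIs that were required for counts of genes past a fold, so those counts cover 7 of the 9 genes. Of the 8 genes with UMIs in a class of at least 50 cells, 7 had their highest level in a fibroblast group or in mesothelial-like cells, and *C4b* had its highest in Schwann-like cells on 6 UMIs. The 4 fibroblast groups and the mesothelial-like class were among 16 ranked classes. The same share over all genes is not given here, so this count only describes the members.

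The genes lie on 5 chromosomes of the build GRCm38 (mm10), in the GENCODE M21 annotation, which gives the same Ensembl identifiers as the deposited table. *C2* (ENSMUSG00000024371, chr17:34862604-34898265) and *Cfb* (ENSMUSG00000090231, chr17:34856374-34862518) follow each other on the minus strand with 85 bases between them. *C4b* (ENSMUSG00000073418, chr17:34728380-34743882) lies 112491 bases from *Cfb* on the same strand, and *C3* (ENSMUSG00000024164, chr17:57203970-57228136) is farther along the same chromosome. *C1ra* (ENSMUSG00000055172, chr6:124512405-124523443, plus strand) and *C1s1* (ENSMUSG00000038521, chr6:124530345-124542359, minus strand) point toward each other, 6901 bases apart. *Serping1* (ENSMUSG00000023224) is at chr2:84765387-84775444, *C7* (ENSMUSG00000079105) at chr15:4988762-5063740 and *Cfd* (ENSMUSG00000061780) at chr10:79890853-79892655.

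RefSeq promoter sequences of GRCm38.p6, from 250 bases before to 50 after the annotated start, were matched for 5 of the 9 genes. Those of *C3*, the gene with the widest contrast between classes, and of *C1ra* and *C1s1*, a pair of proteases whose levels ran close together over most classes, are printed 5′ to 3′ on the strand of the gene. Capitals mark matches to TATAAA (the TATA box), TTCNNNGAA (the interferon gamma activated site bound by STAT factors) or TTGCNNAA (a C/EBP site), searched on both strands, and the core of the interferon-stimulated response element was searched too. Starts are those of RefSeq and can differ from GENCODE's.
C3 promoter, chr17:57228087-57228386, minus strand: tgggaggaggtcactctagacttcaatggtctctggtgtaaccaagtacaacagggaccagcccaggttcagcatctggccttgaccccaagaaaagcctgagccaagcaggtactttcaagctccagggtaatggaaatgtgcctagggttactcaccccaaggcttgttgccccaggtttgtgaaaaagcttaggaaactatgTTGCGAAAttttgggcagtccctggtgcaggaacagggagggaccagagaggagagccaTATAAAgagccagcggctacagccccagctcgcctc
C1ra promoter, chr6:124512371-124512670, plus strand: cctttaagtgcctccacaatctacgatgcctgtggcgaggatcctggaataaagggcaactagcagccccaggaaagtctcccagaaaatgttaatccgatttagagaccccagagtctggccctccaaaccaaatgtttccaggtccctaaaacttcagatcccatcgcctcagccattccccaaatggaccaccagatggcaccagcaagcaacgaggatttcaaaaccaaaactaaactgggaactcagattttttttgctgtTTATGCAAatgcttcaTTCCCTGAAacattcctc
C1s1 promoter, chr6:124542272-124542571, minus strand: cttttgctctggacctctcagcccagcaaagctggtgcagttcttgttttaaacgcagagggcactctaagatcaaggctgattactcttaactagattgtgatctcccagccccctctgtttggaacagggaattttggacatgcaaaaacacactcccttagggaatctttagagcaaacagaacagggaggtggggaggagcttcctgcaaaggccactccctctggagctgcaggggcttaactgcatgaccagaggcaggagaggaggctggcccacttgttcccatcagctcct
The *C3* window held TTGCGAAA, 45 bases before the annotated start, and TATAAA, 14 bases after it. The *C1ra* window held TTATGCAA and TTCCCTGAA, beginning 16 and 32 bases after the annotated start, and this *C1s1* window, the first of 2 in the table, held no match, while the second held TTAGGCAA, a C/EBP match 242 bases before its start. Of 32544 distinct promoter windows, 13.6% held TATAAA, 8.33% TTCNNNGAA, 10.8% TTGCNNAA and 3.45% the response element core. A match describes letters only.

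*C3*, the protein on which all routes meet, was concentrated in mesothelial-like cells. Its level there was 2004 CPM (95% interval 1953 to 2056, 5839 UMIs), and 68.5% of all *C3* UMIs fell in this class, which held 4.80% of the kept cells. Macrophage-like cells came next with 98.9 CPM (62.0 to 150, 22 UMIs), and the other fibroblasts followed with 72.6 CPM (66.6 to 79.0). The interval of the ratio between those neighbours, 1.36 (0.846 to 2.08), holds 1, so their order is not set. Mesothelial-like cells exceeded macrophage-like cells 20.3-fold (13.4 to 32.4) and all fibroblasts together, at 54.2 CPM (50.8 to 57.7), 37.0-fold (34.5 to 39.6). At least 1 *C3* UMI was seen in 92.2% of mesothelial-like cells, and in 70.7% after each cell had been thinned at random to 800 UMIs. In fibroblasts the shares were 9.07% and 3.56%.

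The level that free RNA can reach in this library was not measured, and classes with low *C3* were taken as a guide to it. *C3* stood at 12.3 CPM in T cell-like, 9.94 CPM in B cell-like and 16.0 CPM in red blood cell-like cells, and at 16.5 CPM (13.7 to 19.7) in acinar-like cells. The *Mfap4* *Meox2* fibroblasts, at 16.8 CPM (12.8 to 21.6), could not be told from acinar-like cells, with a ratio of 1.02 (0.733 to 1.40). Macrophage-like cells were higher, 8.02-fold (4.29 to 14.9) over T cell-like cells, with *C3* UMIs in 14 of 66 cells. The 23 neutrophil-like cells held 10 *C3* UMIs in 4 cells, 190 CPM (91.1 to 349), a class under the 50 cells required for ranking.

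Among mesothelial-like cells *C3* varied widely. The median cell was at 1833 CPM, the 10th percentile at 272 CPM and the 90th at 4071 CPM, and 1 cell held 128 *C3* UMIs. The 53 cells with the most *C3* UMIs, about 10% of the class, held 42.2% of its *C3* UMIs. Ranked likewise, the share was 43.1% for *C1ra*, 41.9% for *C2*, 39.9% for *C1s1*, 36.2% for *Serping1* and 63.4% for *Cfb*. Such a share was thus not particular to *C3*. The ranking used UMIs not scaled to depth, and the part of depth and counting in this spread was not tested. In fibroblasts the 90th percentile of *C3* was 0. Of the 5367 fibroblasts, 39 held 5 or more *C3* UMIs and together 31.9% of the fibroblast *C3* UMIs. *Wt1*, a mesothelial marker that fibroblasts also carried, was at 683 CPM (653 to 713) in mesothelial-like cells. It was at 630 CPM (525 to 749) in the 39 cells, near that level, and at 112 CPM in the other 5328 fibroblasts. The other 5 mesothelial markers together were at 59.5 CPM (30.8 to 104, 12 UMIs in 6 cells) and 10.3 CPM (8.82 to 11.9), against 2717 CPM in mesothelial-like cells. *C2* was at 94.2 CPM in the 39 cells and at 27.9 CPM in the others. The gates limited these marker levels in fibroblasts. A cell with at least 3 UMIs from 2 or more mesothelial markers was not called a fibroblast. The part of mesothelial RNA in the fibroblast *C3* level was not tested.

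**Figure D1:**
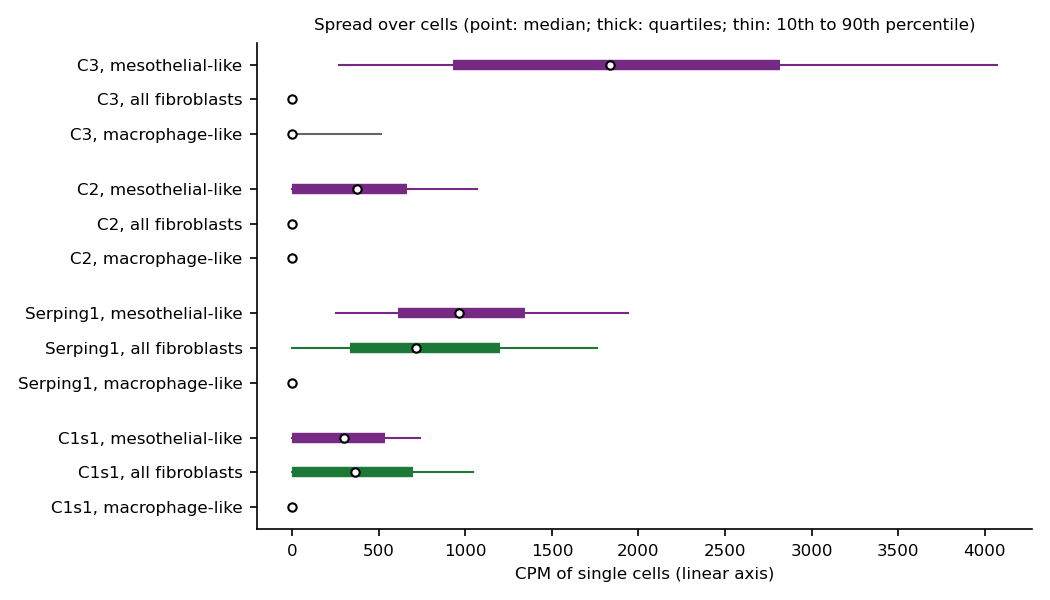
Spread of *C3*, *C2*, *Serping1* and *C1s1* over single cells of 3 classes, in CPM on a linear axis, with the median as a point, the quartiles as a thick line and the 10th to 90th percentiles as a thin line. The *C3* median is 1833 CPM in mesothelial-like cells and 0 in fibroblasts and macrophage-like cells, whereas the *Serping1* medians of mesothelial-like cells and fibroblasts lie close, at 960 and 713 CPM.

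*C2*, the protease subunit of the classical enzyme that cuts C3, and *Cfb*, its counterpart in the alternative route, were also highest in mesothelial-like cells. *C2* was at 441 CPM (417 to 466, 1285 UMIs) in mesothelial-like cells and at 28.7 CPM (26.3 to 31.3) in fibroblasts, a 15.4-fold difference (13.9 to 17.1). Mesothelial-like cells held 55.2% of all *C2* UMIs, and 72.6% of them had a *C2* UMI. No *C2* UMI was found in the 66 macrophage-like cells, so with a floor of 3 UMIs their level could still reach 13.5 CPM.

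*Cfb* was at 89.9 CPM (79.3 to 101, 262 UMIs) in mesothelial-like cells and at 11.7 CPM (10.2 to 13.4) in fibroblasts, a 7.68-fold difference (6.38 to 9.25). It was detected in 28.4% of mesothelial-like cells. No *Cfb* UMI was seen in red blood cell-like, B cell-like, pericyte-like, Schwann-like or dendritic-like cells. With a limit of 3 UMIs, Schwann-like cells could still reach 19.5 CPM and dendritic-like cells 12.5 CPM, so neither can be set below fibroblasts. Fibroblasts exceeded T cell-like cells in *C2*, which stood at 2.57 CPM there on 5 UMIs, 11.2-fold (4.76 to 34.6), and in *Cfb*, at 2.05 CPM on 4 UMIs, 5.70-fold (2.19 to 21.1), so both were above the T cell-like level in fibroblasts too.

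These 3 genes were the members at least 2-fold higher in mesothelial-like cells than in fibroblasts, on the scale of CPM plus 10. Of the 7 members with 200 UMIs, 3 passed that fold, while 6.37% of 12028 genes did. None was 2-fold lower, against 4.33% of all genes. The median fold of the 7 members was 1.46 and that of all genes 1.04. Set against all other kept cells, mesothelial-like cells were 2-fold higher for 5 of 7 members, *C1ra*, *C2*, *C3*, *Cfb* and *Serping1*, against 5.75% of all genes. On that scale the folds were 29.6 for *C3*, 13.9 for *C2* and 5.59 for *Cfb*. The members were chosen with earlier results of these data known, so such counts, here and below, describe them and are no test.

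Mesothelial-like cells with a lower and a higher share of *Dcn*, *Lum* and *Pdgfra* UMIs were compared in a split added after the data had been seen. *Dcn* gave 15250 of these UMIs, *Lum* 695 and *Pdgfra* 189, so the split mainly follows *Dcn*, which this class carried at near the fibroblast level. The part of fibroblast RNA in the levels below was not tested. In the 263 cells with the lower share of *Dcn*, *Lum* and *Pdgfra* UMIs, *C3* was at 1992 CPM (1913 to 2074), and in the other 262 at 2012 CPM (1945 to 2080). *Cfb* was at 97.3 CPM (80.5 to 117) and 84.7 CPM (71.5 to 99.7), and *C2* at 473 CPM (435 to 514) and 418 CPM (388 to 450). *Serping1* was at 958 CPM (903 to 1015) and 1056 CPM (1008 to 1106), and *C1s1* was at 326 CPM (294 to 360) and 356 CPM (328 to 385). *Dcn* itself differed between these parts by construction, 2900 CPM against 6872 CPM.

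At the level of single mesothelial-like cells thinned to 800 UMIs, *C3* was seen in 80.5% (72.5 to 86.9) of the 128 cells with a *C2* UMI and in 67.5% (62.7 to 72.1) of the cells without one. For *C1s1* and *C1ra* the shares leaned the same way, but with overlapping intervals. *C3* was seen in 78.7% (70.4 to 85.6) of cells with a *C1s1* UMI and 68.2% (63.4 to 72.8) without. For *C1ra* the shares were 78.6% (69.1 to 86.2) and 68.9% (64.2 to 73.2). *C3* and *Cfb* had overlapping intervals, with *Cfb* in 7.82% (5.30 to 11.03) of cells with a *C3* UMI and 3.90% (1.44 to 8.29) of cells without. *Serping1* was in 51.2% (46.0 to 56.4) of cells with a *C3* UMI and 49.4% (41.2 to 57.5) of cells without. *Cfb* was in 7.03% (3.27 to 12.9) of cells with a *C2* UMI and 6.55% (4.32 to 9.45) of cells without. Among all pairs of *C1ra*, *C1s1*, *C2*, *C3*, *Cfb* and *Serping1* in this class, only *C2* with *C3* had intervals that did not overlap. These shares rest on a single random thinning. Of all thinned mesothelial-like cells, 29.7% had UMIs of at least 3 of the 9 genes, against 4.16% of fibroblasts.

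**Figure D2:**
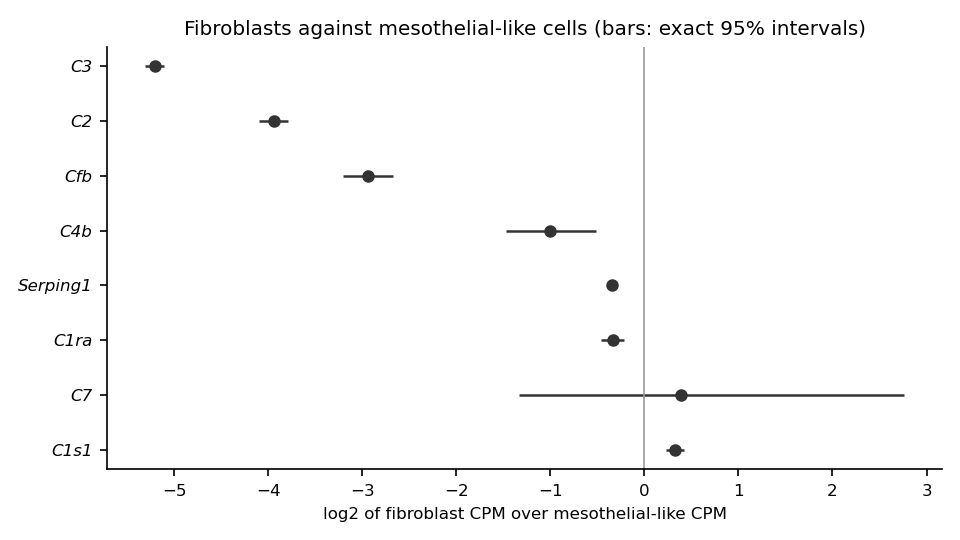
Log2 ratio of the level in all fibroblasts to the level in mesothelial-like cells for 8 complement genes, with exact 95% intervals, in 1 library. *C3*, *C2* and *Cfb* lie far below 0, *C1s1* lies above 0, and the *C7* interval, on 27 UMIs, holds 0.

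*C1ra* and *C1s1* encode the C1r and C1s proteases, and *Serping1* their inhibitor. All 3 were spread over the fibroblast groups and mesothelial-like cells alike, unlike *C3*, *C2* and *Cfb*. *Serping1* was at 1016 CPM (979 to 1053) in mesothelial-like cells and between 752 and 839 CPM in the 4 fibroblast groups, and fibroblasts held 66.4% of its UMIs. It was detected in 92.6% of mesothelial-like cells and 82.0% of fibroblasts. Mesothelial-like cells exceeded fibroblasts 1.27-fold (1.22 to 1.32).

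*C1ra* was at 225 CPM (208 to 243) in mesothelial-like cells and 178 CPM (172 to 185) in fibroblasts, a ratio of 1.26 (1.16 to 1.37), but its ratio to the *Rspo3* *Cxcl14* group, 1.12 (0.993 to 1.27), held 1. *C1s1* went the other way. It was at 343 CPM (323 to 365) in mesothelial-like cells and 431 CPM (422 to 441) in fibroblasts, so that fibroblasts were 1.26-fold higher (1.18 to 1.34). For the *Mfap4* *Meox2* group alone the ratio to mesothelial-like cells was 1.07 (0.985 to 1.16), which holds 1. *C1s1* was highest in *Rspo3* *Cxcl14* fibroblasts at 528 CPM (498 to 559).

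Outside the stroma the 3 genes were low. T cell-like cells had 5.14 CPM of *C1ra*, 17.5 CPM of *C1s1* and 37.0 CPM of *Serping1*, and red blood cell-like cells 4.004, 25.4 and 56.1 CPM. Against T cell-like cells, fibroblasts were 34.7-fold higher (18.8 to 72.4) for *C1ra*, 24.7-fold (17.7 to 35.7) for *C1s1* and 21.6-fold (17.2 to 27.7) for *Serping1*. Macrophage-like cells held no *C1ra* UMI, 2 *C1s1* UMIs and 4 *Serping1* UMIs, with ratios to T cell-like cells of 0.515 (0.0599 to 2.01) for *C1s1* and 0.486 (0.129 to 1.30) for *Serping1*, both holding 1. Of 7 members, 4 were 2-fold lower in macrophage-like cells than in fibroblasts (*C1ra*, *C1s1*, *C2* and *Serping1*), where 17.9% of all genes were.

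Fibroblasts were 2-fold higher than all other kept cells for 3 of 7 members, *C1ra* (3.22-fold), *C1s1* (4.004-fold) and *Serping1* (3.36-fold), against 7.29% of all genes. *C3* was lower in fibroblasts than in the other cells on the same scale, at 0.256-fold, where the other cells include the mesothelial-like class.

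**Figure D3:**
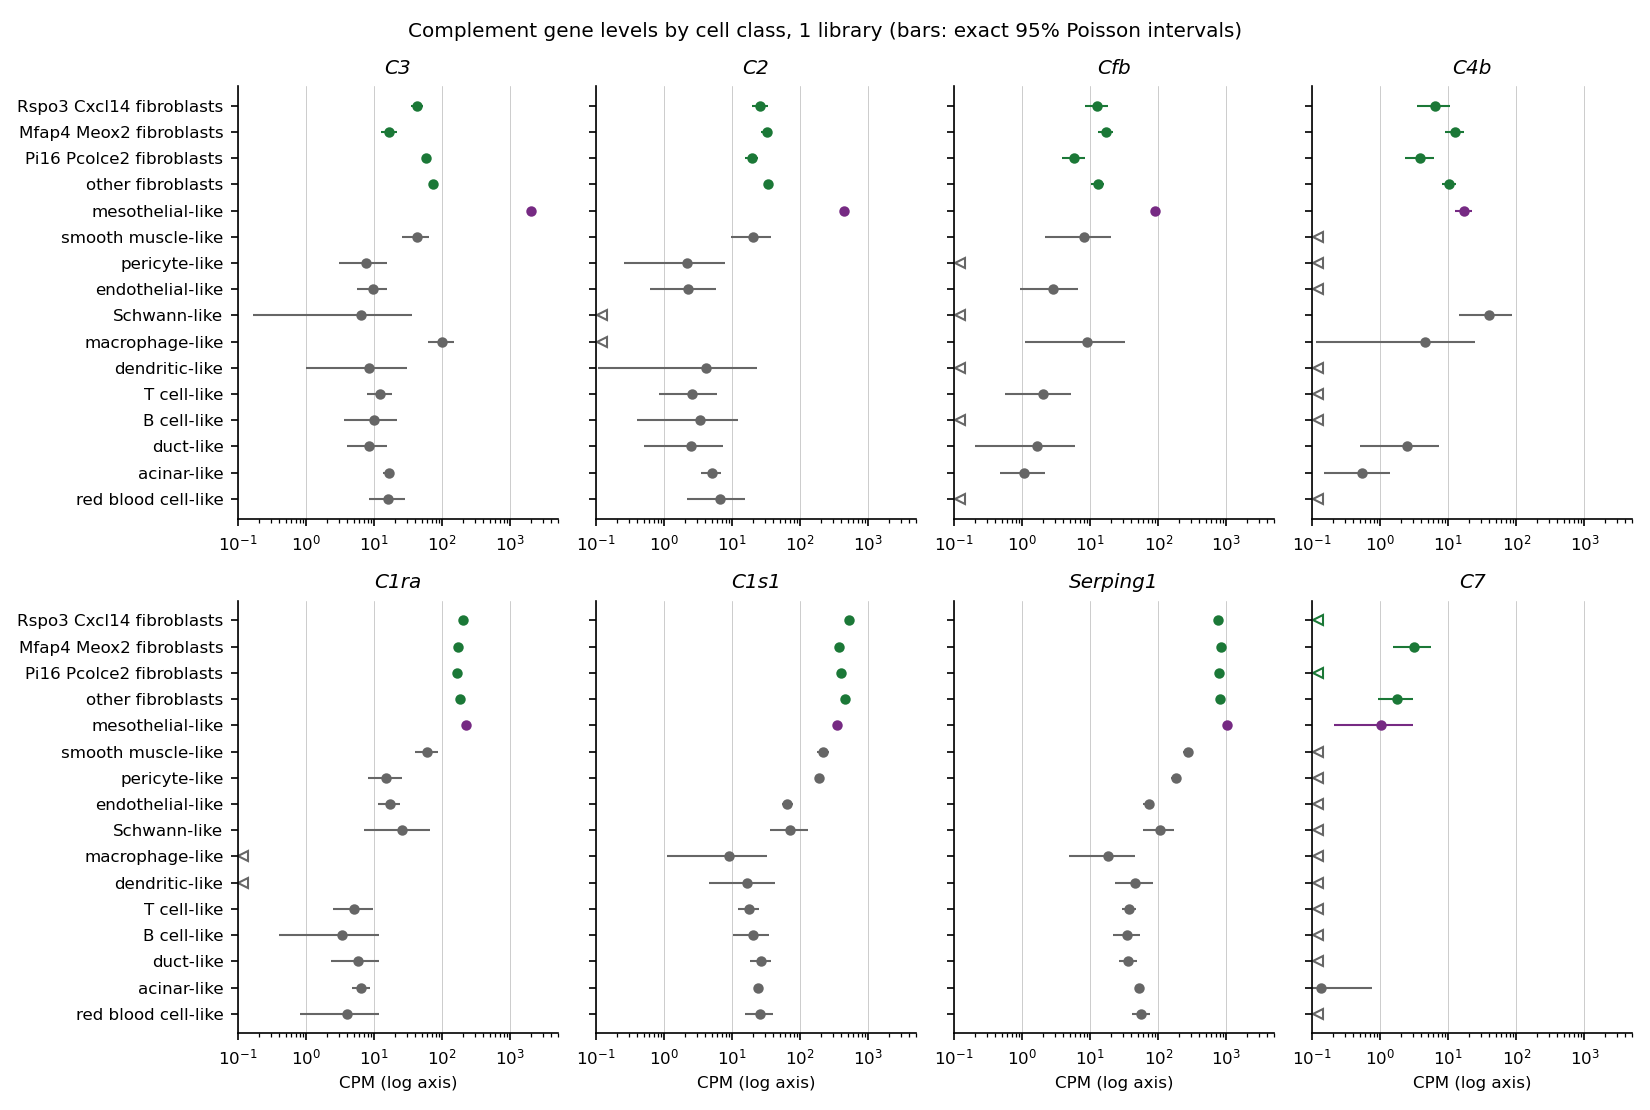
Levels of 8 complement genes in the 16 classes of at least 50 cells, in CPM on a log axis, with exact 95% Poisson intervals. Fibroblast groups are green, mesothelial-like cells purple and other classes grey, and an open triangle at the left edge marks a class with no UMI. *C3*, *C2* and *Cfb* peak in mesothelial-like cells, while *C1ra*, *C1s1* and *Serping1* are high in all 4 fibroblast groups and in mesothelial-like cells.

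Pericyte-like cells, which wrap small blood vessels, carried *C1s1* with little *C1ra*. They had 177 *C1s1* UMIs (191 CPM, 164 to 221) and 14 *C1ra* UMIs (15.1 CPM, 8.24 to 25.3), which is 12.6 *C1s1* UMIs per *C1ra* UMI (7.34 to 23.6). Fibroblasts had 2.42 (2.32 to 2.52), so the pericyte-like ratio was 5.22-fold higher (3.03 to 9.77). In the 4 fibroblast groups it ran from 2.19 to 2.63. Mesothelial-like cells had 1.53 (1.38 to 1.69), 0.631 of the fibroblast ratio (0.566 to 0.703).

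Smooth muscle-like cells had 3.63 (2.41 to 5.64) *C1s1* UMIs per *C1ra* UMI and endothelial-like cells 3.80 (2.52 to 5.89). Their ratios to the fibroblast value were 1.502 (0.992 to 2.34) and 1.57 (1.04 to 2.44), the first with an interval that holds 1. The *C1s1* level of pericyte-like cells was 0.442 of that of fibroblasts, and acinar-like cells had *C1s1* at 24.2 CPM. Summed fibroblast markers were at 2944 CPM in pericyte-like and 2217 CPM in acinar-like cells. Both sums were limited by the gates, since such cells with at least 2% fibroblast marker UMIs were called mixed. The part of fibroblast RNA in the pericyte-like *C1s1* level was not tested. *Serping1* was at 182 CPM (156 to 212) in pericyte-like cells, 4.92-fold (3.71 to 6.58) over T cell-like cells. Pericyte-like and endothelial-like cells each carried markers of the other, with endothelial markers at 4012 CPM in the former.

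**Figure D4:**
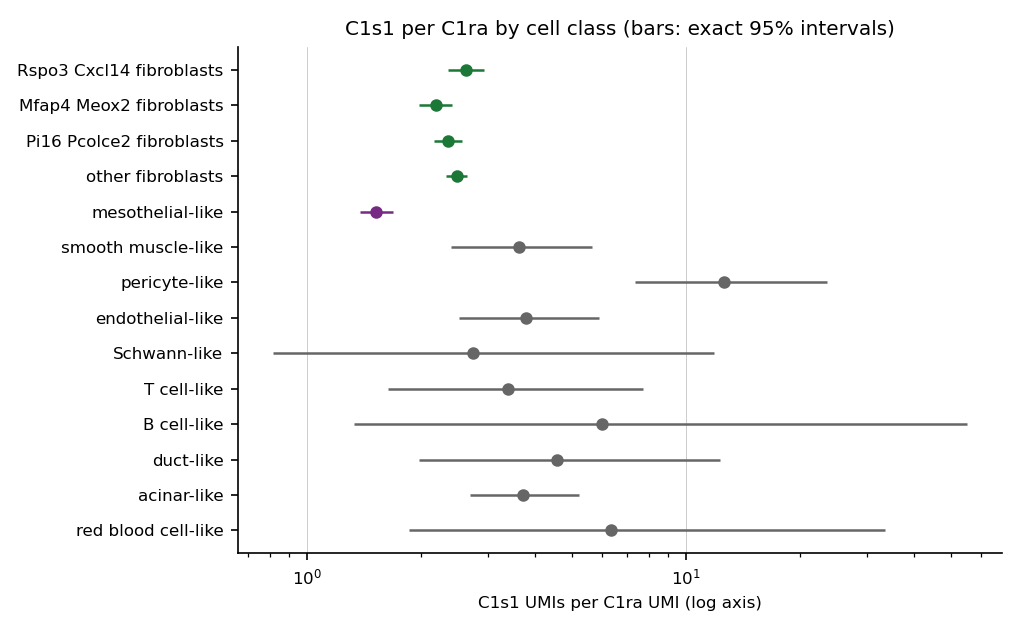
*C1s1* UMIs per *C1ra* UMI by class on a log axis, with exact 95% intervals, for the classes with a *C1ra* UMI. Pericyte-like cells stand highest at 12.6 and mesothelial-like cells lowest at 1.53, while the 4 fibroblast groups lie between 2.19 and 2.63. The intervals of red blood cell-like, B cell-like, duct-like, Schwann-like and T cell-like cells, on few UMIs, overlap the pericyte-like interval of 7.34 to 23.6. The widest, of B cell-like cells, runs from 1.34 to 55.2.

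The fibroblast groups differed among themselves in *C3*, *C4b*, *Cfb* and *C2*. Against the *Mfap4* *Meox2* group, *C3* was 3.49-fold higher (2.62 to 4.70) in *Pi16* *Pcolce2* fibroblasts (58.5 CPM, 51.8 to 65.8) and 2.57-fold higher (1.84 to 3.61) in *Rspo3* *Cxcl14* fibroblasts (43.0 CPM, 34.9 to 52.5). The *Mfap4* *Meox2* group had more *Cfb* (16.8 CPM) and more *C4b* (12.5 CPM) than the *Pi16* *Pcolce2* group, 2.91-fold (1.82 to 4.77) and 3.26-fold (1.84 to 5.99). *C2* went the same way, 1.69-fold higher (1.27 to 2.25). By clusters, the *Cfb* and *C2* differences did not hold throughout, as given below. Of the mesothelial markers, *Wt1*, which fibroblasts also carried, was at 158 CPM in the *Pi16* *Pcolce2* group and 51.2 CPM in the *Mfap4* *Meox2* group. The other 5 markers together were alike in both, at 8.32 CPM (5.92 to 11.4) and 9.38 CPM (6.46 to 13.2). These values too were limited by the mesothelial gate. The *Pi16* *Pcolce2* gate also used *Dpp4*, at 455 CPM in that group, 15.9 CPM in the *Mfap4* *Meox2* group and 218 CPM in mesothelial-like cells. The part of mesothelial RNA in the *C3* difference was not tested.

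*C1s1* was 1.44-fold higher (1.32 to 1.55) in *Rspo3* *Cxcl14* than in *Mfap4* *Meox2* fibroblasts, and *Serping1* differed by no more than 1.12-fold (1.05 to 1.19) between any pair of the 3 named groups. Among those 3 groups, *C3* was the 1 member of 7 whose highest level was at least 2-fold its lowest on the scale of CPM plus 10, and 6.63% of all genes passed that fold. These values hold for the gated groups. By clusters, *Serping1* was at 520 and 1261 CPM in clusters 4 and 5, both named *Mfap4* *Meox2*. *C3* was at 11.3 and 33.0 CPM there, and at 74.5 and 21.2 CPM in the *Rspo3* *Cxcl14* clusters 1 and 3.

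Dividing fibroblasts had less *C1s1* and *Serping1*. The 168 fibroblasts with at least 3 UMIs from 2 or more of the genes *Mki67*, *Top2a*, *Cenpf* and *Birc5* were set against 4925 with none. *C1s1* was at 266 CPM (235 to 301) in the dividing cells and 445 CPM (435 to 455) in the others, a ratio of 0.598 (0.526 to 0.677). *Serping1* gave 519 against 825 CPM, a ratio of 0.629 (0.574 to 0.688). The intervals of the other 6 genes with UMIs in fibroblasts held 1, among them *C1ra* at 0.858 (0.722 to 1.01), *C3* at 0.887 (0.647 to 1.19) and *C2* at 0.630 (0.370 to 1.006). The dividing cells were deeper, with a median of 4466 UMIs against 2542, and the part of depth in these ratios was not tested.

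*C4b*, the thioester protein cut by C1s, was low. It was at 17.2 CPM (12.7 to 22.6) in mesothelial-like cells, 12.5 CPM (9.09 to 16.8) in *Mfap4* *Meox2* fibroblasts and 3.84 CPM (2.28 to 6.07) in *Pi16* *Pcolce2* fibroblasts. Schwann-like cells, the glia of peripheral nerves, had 39.0 CPM (14.3 to 85.0) on 6 UMIs in 5 of 66 cells. Their ratio to mesothelial-like cells, 2.28 (0.797 to 5.31), holds 1, and their ratio to fibroblasts was 4.55 (1.65 to 10.1). Scrublet marked 7 of the 66 Schwann-like cells (10.6%), and with marked cells removed their *C4b* level was 31.3 CPM. Summed fibroblast markers were at 14446 CPM in this class, and the part of fibroblast RNA in its *C4b* level was not tested. No *C4b* UMI was found in T cell-like, B cell-like, red blood cell-like, dendritic-like, endothelial-like, pericyte-like or smooth muscle-like cells. Dendritic-like cells, the class with the fewest cells among these, could still reach 12.5 CPM.

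*C4b* has a near copy, *C4a*, with 18 UMIs in the library. Of the 411 windows of 90 bases in the last 500 bases of the longest *C4b* transcript, 20.2% also stand in a *C4a* transcript, so reads there could be split or dropped and the *C4b* level is uncertain to that extent. For *C1ra* and its copy *C1rb* (2 UMIs) the share was 11.2%, and for *C1s1* and *C1s2* (15 UMIs) it was 2.68%.

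*C7* had 38 UMIs, of which 11 were in *Mfap4* *Meox2* fibroblasts, 13 in other fibroblasts, 10 in mixed barcodes and 3 in mesothelial-like cells. Its level in *Mfap4* *Meox2* fibroblasts was 3.13 CPM (1.56 to 5.60). None was seen in the 1007 *Pi16* *Pcolce2* or the 551 *Rspo3* *Cxcl14* fibroblasts, which allows up to 0.640 and 1.34 CPM. At this depth no order of the remaining classes could be given.

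*Cfd*, which encodes factor D and is also called adipsin for its high expression in fat cells, was found in 2 barcodes. One, outside all named classes, held 48 of the 49 UMIs, or 6200 CPM of its 7742 UMIs. It also held *Adipoq* (7 UMIs), *Plin1* (8), *Cidec* (15) and *Retn* (15), which are adipocyte genes, and 6 *C3* UMIs, but no UMI of the other 7 complement genes. No *Lep* UMI was seen in it. The other was a mixed barcode of 43784 UMIs with a single *Cfd* UMI. In the 525 mesothelial-like cells no *Cfd* UMI was found, which allows up to 1.03 CPM, and in the 5367 fibroblasts none either, up to 0.168 CPM.

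Likeness between genes was measured as Pearson's r of log2(CPM + 10) over the 16 classes of at least 50 cells, among genes with 200 UMIs or more, as a description of classes that share 1 library. The names depend on the method, since of the 21 listed 2 were shared with Spearman's rho in place of r, 7 with clusters in place of gates and 11 with a pseudocount of 1 CPM. *Serping1* was most like *Ccdc80* (r = 0.986), *C1ra* (0.979) and *C1s1* (0.976), and *C1s1* was also most like *Ccdc80* (0.983), with *Spin4* (0.978) next. For *C1ra* the most alike were *Usp13* (0.981), *Serping1* (0.979) and *Cdh11* (0.974). For *C2* they were *Isl1* (0.982), *Scarletltr* (0.972) and *Rspo1* (0.946). *C3* was most like *Cfb* (0.918), followed by *Akr1b8* (0.916) and *Col6a5* (0.905), and *Cfb* was most like *Podn* (0.970), with *Akr1b8* (0.946) also among its closest. For *C4b* they were *Abca8b* (0.902), *Sfrp1* (0.890) and *Il1rapl1* (0.890). Within the members r was 0.934 for *C2* and *Cfb*, 0.956 for *C1ra* and *C1s1*, and 0.424 for *C3* and *C1s1*.

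The rest of the cascade was described from lists of its other genes. Of the 12 that recognise targets or start the cascade, 7 had at least 50 UMIs. The 3 chains of C1q were in macrophage-like cells, *C1qa* at 598 CPM (501 to 708), *C1qb* at 580 CPM (484 to 689) and *C1qc* at 539 CPM (447 to 645), each with UMIs in 15 to 18 of the 66 cells. *C1qa* was also seen in acinar-like cells at 31.6 CPM and in duct-like cells at 16.6 CPM. In mesothelial-like cells the C1q genes were at or under 1.03 CPM. *Colec12*, a scavenger receptor with a collectin domain, was at 438 CPM in mesothelial-like cells and 244 to 480 CPM in the fibroblast groups. The lectin pathway proteases were sparse, *Masp1* reaching 14.2 CPM in endothelial-like and 13.4 CPM in *Mfap4* *Meox2* fibroblasts and *Masp2* 3.38 CPM in acinar-like cells. *Colec11* reached 17.2 CPM in pericyte-like cells. *Mbl1* and *Mbl2*, the mannose-binding lectins, had 1 UMI each, *Fcna* 38, *Fcnb* 48 and *Colec10* 9.

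Of the genes of the alternative and terminal steps, *Cfp* (properdin, which steadies the alternative enzyme) alone had 50 UMIs or more, and was at 166 CPM (117 to 229) in macrophage-like cells. *Hc*, which encodes C5, had 3 UMIs, *C6* 3, *C8b* 4, *C8g* 38, *C9* 14 and *C8a* none. *C1rl*, a relative of C1r, was highest in mesothelial-like cells at 14.4 CPM.

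Inhibitors were divided between classes. *Clu* (clusterin, an inhibitor of the terminal complex) was at 279 CPM (260 to 298) in mesothelial-like cells, 10.5 to 14.98 CPM in the fibroblast groups and 2361 CPM in duct-like cells. *Vtn* (185 CPM) and *Cpn1* (30.8 CPM) were highest in acinar-like cells and *Cfi* (5.79 CPM) in duct-like cells. *C4bp* had 6 UMIs and *Cpn2* none.

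Among inhibitors on the cell surface, *Cd55* was at 683 CPM in *Pi16* *Pcolce2* fibroblasts, against 69.9 CPM in *Mfap4* *Meox2* fibroblasts and 90.9 CPM in mesothelial-like cells. *Thbd* (thrombomodulin) was highest in mesothelial-like cells, at 509 CPM (483 to 535), and at 241 to 419 CPM in the fibroblast groups. *Cr1l*, the rodent regulator Crry, was at 46.3 to 66.3 CPM in the fibroblast groups, 56.6 CPM in mesothelial-like cells and 74.7 CPM in endothelial-like cells, its highest. *Cd59a* (267 CPM), *Cd59b* (13.01 CPM, 2 UMIs) and *Csmd1* (2596 CPM) were highest in Schwann-like cells and *Cd46* (26.9 CPM) in pericyte-like cells.

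Receptors were on leukocytes and endothelium. *C5ar1* (225 CPM), *Itgam* (342 CPM) and *Itgb2* (171 CPM) were highest in macrophage-like cells among the ranked classes, *Cr2* (58.0 CPM) in B cell-like and *Cd93* (985 CPM) in endothelial-like cells. In mesothelial-like cells *C5ar1* was at 0 and *Itgam* and *Itgb2* had 1 UMI each. *C3ar1*, the receptor for the C3a fragment, had 35 UMIs, *C5ar2* 24, *Itgax* 33 and *Vsig4* 1. Over these lists, 2 of the 25 genes with 50 UMIs or more that are described here were highest in a fibroblast group (*Colec12* and *Cd55*) and 2 in mesothelial-like cells (*C1rl* and *Thbd*). The shares over all genes are not given for these counts.

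**Figure D5:**
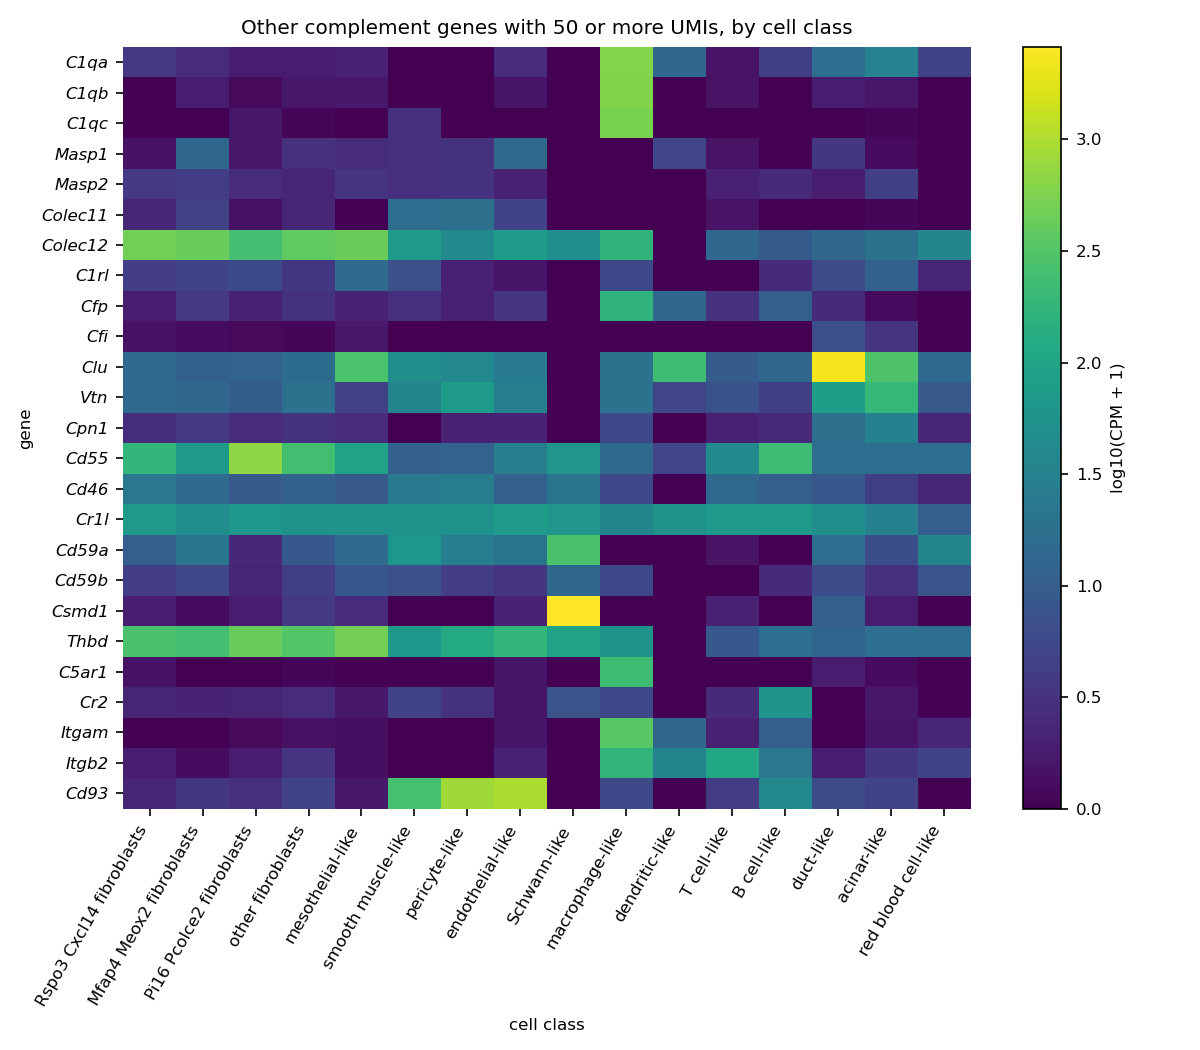
Levels of 25 other complement genes with 50 UMIs or more in the 16 ranked classes, as log10 of CPM plus 1. The C1q genes are brightest in macrophage-like cells, *Clu* is brightest in duct-like cells and *Thbd* and *Colec12* are bright across the fibroblast groups and mesothelial-like cells.

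Interleukin 6, interferon gamma, interleukin 1 and tumour necrosis factor are known to raise complement genes in many cells. Of the 14 genes of that list, all with at least 50 UMIs, 3 were highest in a fibroblast group (*Il6*, *Il6st* and *Cebpd*) and none in mesothelial-like cells. Here too the shares over all genes are not given. *Il6* was at 124 to 136 CPM in the fibroblast groups and at 25.7 CPM in mesothelial-like cells. *Il6st*, the shared receptor chain, was at 182 to 266 CPM and 241 CPM, *Stat3* at 126 to 237 CPM and 228 CPM, *Nfkb1* at 97.2 to 126 CPM and 103 CPM and *Nfkbia* at 44.6 to 103 CPM and 177 CPM. *Cebpd*, a transcription factor that interleukin 6 induces, was at 412 to 636 CPM in the fibroblast groups and 103 CPM in mesothelial-like cells, while *Cebpb* was at 143 to 252 CPM and 437 CPM.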

How the data were processed

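Cells of 1 pooled pancreas library were captured with a 3′ droplet kit, and the authors aligned the reads with Cell Ranger 7.1.0 to mm10 and deposited raw UMI counts per gene and barcode. The removal of free RNA that the study's methods describe could not be seen in the deposited counts. Nothing in the library maps cells to mice.

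A barcode was kept if its UMIs numbered above 800 and below 100000 and less than 15% of them were mitochondrial. Gates on marker genes assigned classes, most needing at least 3 marker UMIs from 2 markers, with thresholds set after the marker distributions had been seen. UMIs were summed per class and given as CPM. Levels have exact Poisson intervals, shares Clopper-Pearson intervals and ratios exact conditional binomial intervals, and none covers differences between mice. A level with no UMI was limited by 3 counts. Folds across all genes used CPM plus 10 and genes with at least 200 UMIs. Shares were repeated after thinning each cell to 800 UMIs.

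The members and gene lists were chosen with earlier results of these data known. Named genes were the 9 members, the complement lists (values from 50 UMIs upward), 3 near copies, the 3 genes most like each member, class markers, and inducer genes above 100 CPM in a fibroblast group. Cells with 5 or more *C3* UMIs, the dividing fibroblasts and the *Cfd* barcodes were described after values had been seen. Scripts were tested on simulated data. Alternatives covered depth and mitochondrial limits, Scrublet (expected rate 0.08), clusters (2000 genes, 30 components, 20 neighbours, resolution 1), stricter gates, per-cell means, another depth and subtracted background. Python 3.11.15, numpy 2.4.6, scipy 1.17.1, pandas 2.3.3, scanpy 1.11.5 and matplotlib 3.10.9 were used. Results for a few genes are not reported here.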

Additional observations from a re-analysis of the deposited data

Results flagged for a closer look

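All 49 *Cfd* UMIs lay in barcodes outside the named classes, which no class comparison uses. An unassigned barcode with adipocyte genes held 48 of them and a mixed barcode held 1, while the fibroblast groups and mesothelial-like cells held none.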

How the results depend on the processing

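With 1 library no replicate could be left out, and no paired analysis was possible because there is 1 sample. Under the 9 other settings tried, no log2 ratio of fibroblasts over mesothelial-like cells changed direction. The same held for the 1 setting chosen after the data had been seen. The settings were also tried for the level of each gene in its highest class, where no direction applies. Contrasts between fibroblast groups, the *C1s1* per *C1ra* ratios and the ratios of dividing fibroblasts were not rerun under these settings. For the fibroblast groups, only the cluster levels given above were looked at. The log2 ratio of fibroblasts over mesothelial-like cells for *C3* moved from -5.21 to -5.48 with clusters in place of gates and to -5.70 with the red blood cell-like level subtracted, and that for *C2* from -3.94 to -4.30 with the same subtraction. Thinning to 800 UMIs lowered the share of mesothelial-like cells with a *C3* UMI from 92.2% to 70.7%. Of all genes, 766 were 2-fold higher and 521 lower in mesothelial-like cells than in fibroblasts. These became 1336 and 938 with a pseudocount of 1 CPM, 1521 and 1039 at 1.5-fold, and 398 and 192 at 3-fold, while 3 members were higher and 0 lower in each case. Above 1500 UMIs the Schwann-like class gave no *C4b* level to compare, and *C4b* was highest in mesothelial-like cells among the classes that remained. The count of genes highest in a fibroblast group or mesothelial-like cells was 8 in place of 7 at that limit, and also 8 with clusters. With subsets kept apart, gates and clusters gave 60.9% of 8807 cells the same class, and 93.1% with fibroblasts joined. Depth limits *C7*, *Cfd* and *C4b*.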
